A study of Mus musculus with 36 samples.

Results

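The proteasome genes described here are 39 of the 12596 genes that were tested in 36 mouse liver libraries. They were taken by name: symbols starting with Psma, Psmb, Psmc, Psmd or Psme and a number, without the immunoproteasome subunits Psmb8, Psmb9 and Psmb10 and without pseudogenes, and with a normalized count of at least 10 in at least 4 libraries. Of 42 such symbols 39 passed the filter, and each of these was at 10 or more in all 36 libraries. Psme2b was the member with the lowest values, 16.4 to 86.2, and the 3 symbols that did not pass were Psma8, at 0 to 11.8 with 3 libraries at 10 or more, Psmc3ip, at most 3.99, and Psmb11, at most 1.62. By role they are 7 alpha and 7 beta subunits of the core, 6 ATPase and 11 non-ATPase subunits of the regulatory particle, 3 assembly chaperones of the regulatory particle (Psmd5, Psmd9, Psmd10), 4 activators (Psme1 to Psme4) and Psme2b, a near copy of Psme2 whose reads may be shared with it.

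All libraries came from liver of C57BL/6 mice, and 9 groups of 4 were formed from the labels. Bile duct ligation, a surgical block of bile outflow, was sampled after 7 days (BDL7) and 28 days (BDL28) and had sham surgery as control (SHAM). Cyclosporin A is an immunosuppressant that inhibits bile salt export. It was given at 15 mg/kg body weight in olive oil by oral gavage for 7 days (CsA7) or 28 days (CsA28), and VEHICLE had olive oil alone. 3,5-diethoxycarbonyl-1,4-dihydrocollidine (DDC), a porphyrinogenic compound, was fed at 0.1% of the diet by weight for 7 days (DDC7) or 28 days (DDC28), with the control diet as its control (CTLD). Neither an age nor a day for the controls is stated, so the 2 days of each model share 4 control libraries. The p-values rest on the spread between the 4 samples within groups, estimated over all 9 groups together. The design asks how liver transcripts change under 3 ways of inducing cholestasis, early and late.

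The proteasome degrades proteins that carry ubiquitin chains. Its core is a barrel of stacked rings of alpha and beta subunits, with the cutting sites inside on Psmb5 (after hydrophobic residues), Psmb6 (after acidic residues) and Psmb7 (after basic residues). The regulatory particle caps the barrel: its Psmc ATPases unfold the substrate and its Psmd subunits bind the ubiquitin chain (Psmd4), hold the lid together (Psmd11, Psmd12) or remove the chain (Psmd14), while the Psme activators are alternative caps. In liver the transcription factor NFE2L1 (NRF1) is known to raise proteasome genes together when proteasome capacity falls short, and NFE2L2 (NRF2) responds to oxidants and electrophiles.

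Psmd8, Psmd10 and Psmc2 moved far from the other members, Psme1 is the activator that rose, and Psmb5 is a catalytic subunit. A link between their promoter sequence and these changes was not tested. For these genes the 120 bases before the annotated start (RefSeq, GRCm38.p6) are shown. They lie at chr7:29180674-29180793 on the minus strand for Psmd8, chrX:140956712-140956831 on the minus strand for Psmd10, chr5:21785155-21785274 on the plus strand for Psmc2, chr14:54617996-54618115 on the minus strand for Psmb5 and chr14:55578374-55578493 on the plus strand for Psme1. Capitals mark a CCAAT box (the NF-Y factor's motif, ATTGG on the other strand) in Psmd10 and Psmc2 and the antioxidant response element core TGACNNNGC (the motif of NFE2L1 and NFE2L2) in Psmb5.
Psmd8: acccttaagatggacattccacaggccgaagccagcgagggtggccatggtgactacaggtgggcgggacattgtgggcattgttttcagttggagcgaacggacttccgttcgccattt
Psmd10: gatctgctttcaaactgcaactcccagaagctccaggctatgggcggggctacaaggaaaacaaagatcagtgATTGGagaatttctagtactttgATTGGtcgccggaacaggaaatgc
Psmc2: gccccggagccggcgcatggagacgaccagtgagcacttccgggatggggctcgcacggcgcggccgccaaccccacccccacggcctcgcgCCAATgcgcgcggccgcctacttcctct
Psmb5: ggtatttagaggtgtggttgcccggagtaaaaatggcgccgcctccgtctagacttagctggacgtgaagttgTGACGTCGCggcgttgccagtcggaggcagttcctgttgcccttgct
Psme1: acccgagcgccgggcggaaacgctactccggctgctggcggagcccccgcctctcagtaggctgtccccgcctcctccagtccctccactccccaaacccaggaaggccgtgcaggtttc
The 3 motifs were searched on both strands in the 250 bases before the start and the 50 after it, in the 33 members that had a RefSeq promoter (those named only are Psmb1, Psmb2, Psmb7, Psmc3, Psmd3 and Psmd7). TGACNNNGC was in 6 of 33 members (18.2%: Psmb5, Psmb6, Psmc6, Psmd9, Psmd12 and Psme4) and in 13.99% of 27025 genes. CCAAT was in 12 of 33 (36.4%) and in 41.1% of all genes. The core of the interferon-stimulated response element was in 4 of 33 (12.1%: Psmb3, Psmd4, Psmd9 and Psme1) and in 3.99% of all genes; in Psme1 it lies 10 to 19 bases after the start. These matches describe letters, and none of the 3 motifs was found in the window of Psmd8.

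Recovered reads ran from 2081093 to 3770267 per library (median 2826073), and the members together took 0.518% ± 0.00917 (SD, n = 4) of the reads in SHAM, 0.473% ± 0.0151 in VEHICLE and 0.476% ± 0.0167 in CTLD. In treated groups the share was 0.598% ± 0.0333 in BDL7, 0.551% ± 0.0271 in BDL28, 0.586% ± 0.0303 in DDC7, 0.600% ± 0.0233 in DDC28, 0.530% ± 0.0256 in CsA7 and 0.483% ± 0.0173 in CsA28. The libraries carried the markers of liver: the summed level of 10 hepatocyte markers was 65220 to 72570 normalized counts in SHAM, 74630 to 90160 in VEHICLE and 75980 to 94230 in CTLD, with no marker at 0. It was lower in ligation (35910 to 46500 in BDL7, 44650 to 51270 in BDL28) and in DDC (43130 to 54330 in DDC7, 42080 to 52980 in DDC28), without overlap with the controls. Markers of other cells moved the other way: 12 leukocyte markers summed to 565 to 669 in SHAM against 1554 to 2191 in BDL7 and 947 to 2267 in BDL28, and to 521 to 686 in CTLD against 1191 to 1985 in DDC7 and 1747 to 2312 in DDC28. The 7 bile duct markers summed to 305 to 496 in SHAM, 1865 to 3090.0 in BDL7, 985 to 2869 in BDL28, 313 to 419 in CTLD, 1276 to 1760.0 in DDC7 and 1265 to 2407 in DDC28, and among these 3 lists Krt7 was at 0 in all 4 SHAM libraries and Cd79a, a B cell marker, in all 4 of DDC28. Of these markers 9, 5, 7 and 8 of 10 hepatocyte markers fell in BDL7, BDL28, DDC7 and DDC28, and 10, 6, 8 and 9 of 10 tested leukocyte and 7, 6, 4 and 6 of 7 bile duct markers rose. In the same order 4, 2, 4 and 3 of 5 Kupffer cell and 6, 5, 6 and 7 of 8 fibroblast and stellate markers rose, and 2, 4, 2 and 5 of 6 sinusoidal endothelium markers fell. Of all genes tested 20.2%, 24.1%, 24.7% and 27.9% rose and 18.5%, 22.7%, 22.1% and 24.7% fell, in that order. The part of these cell types in the results that follow was not tested, and in bulk tissue fewer cells of a type and less RNA per cell cannot be told apart. BDL28 replicate 1 had the lowest agreement with the rest of its group of all libraries (r = 0.938 across genes).

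On the authors' scale more proteasome genes fell than rose in ligation and DDC livers, while with total-count scaling more were called higher than lower, as were more of all genes, and 1 call was made under cyclosporin A. The lid subunit Psmd8 rose in each ligation and DDC group under every scaling tried. In BDL7 17 of 39 members (43.6%) fell and 2 rose, where 18.5% of all genes tested fell and 20.2% rose. The members' median log2 fold change was -0.19 and that of all genes 0.01. Without BDL7 replicate 4, 11 members were called in BDL7 in place of 19. In BDL28 18 (46.2%) fell and 1 rose (all genes 22.7% and 24.1%), with a median of -0.24 against 0.03. In DDC7 9 (23.1%) fell and 4 rose (all genes 22.1% and 24.7%), with a median of -0.12 against 0.04, so the share that fell was near that of all genes. In DDC28 12 (30.8%) fell and 7 rose (all genes 24.7% and 27.9%), with a median of -0.11 against 0.04. In CsA7 1 member rose and none fell, where 4.03% of all genes were called. In CsA28 0 of 39 were called, where 0.0238% of all genes were. There 3 members had an unadjusted p under 0.05 in limma and 1 in edgeR, which also called 0. The 2 days of a model share their controls, so their values stand side by side and are not independent. Calls are at a Benjamini-Hochberg adjusted p under 0.05 in limma, 2-sided, on log2(normalized count + 1), and ± after a log2 value is its standard error.

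**Figure D1:**
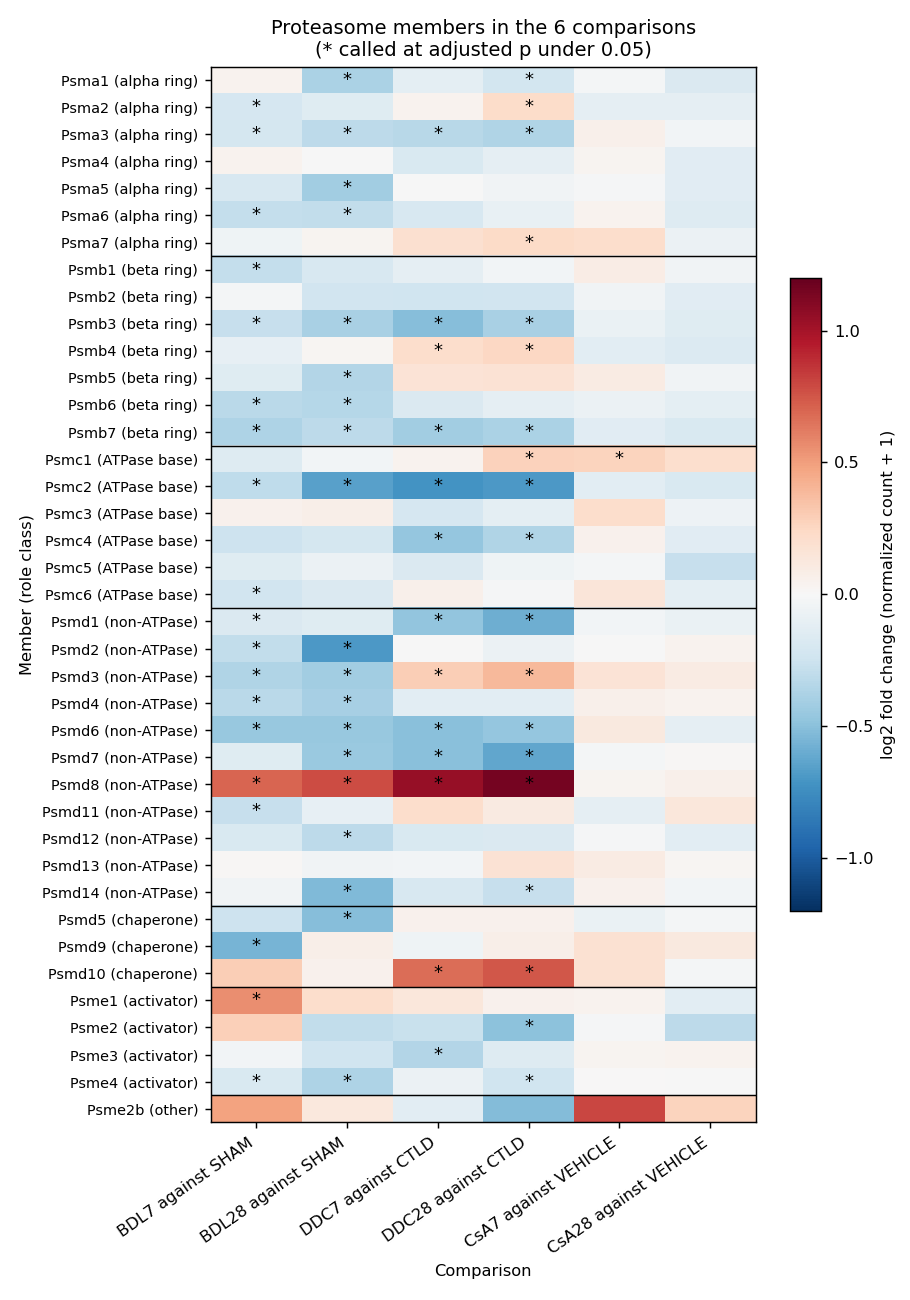
log2 fold changes of the 39 proteasome members (rows, by role class) in the 6 comparisons of a treated group with its control (columns); red is higher, blue is lower in the treated group, and an asterisk marks a call at adjusted p under 0.05. Psmd8 is red in all 4 ligation and DDC columns (log2 0.70 to 1.15) and Psmc2 blue in the same 4 (-0.31 to -0.72), while the cyclosporin A columns hold 1 asterisk.

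Most of the falls depended on how libraries were scaled. With each library scaled to its total count, the median of all genes moved to 0.33 in BDL7, 0.29 in BDL28, 0.38 in DDC7, 0.39 in DDC28, 0.13 in CsA7 and 0.08 in CsA28. On that scale 13 of 39 members were called higher and 0 lower (all genes 39.1% and 7.32%) in BDL7, 8 and 4 (38.3% and 13.3%) in BDL28, 20 and 1 (44.3% and 9.61%) in DDC7, 21 and 3 (46.3% and 12.7%) in DDC28, and 5 and 0 (5.55% and 1.11%) in CsA7. In BDL7 and BDL28 the share of members called higher was thus below that of all genes. With quantile normalization the splits were 7 and 2 (18.8% and 19.4%) in BDL7, 7 and 11 (23.2% and 22.5%) in BDL28, 10 and 9 (22.8% and 23.8%) in DDC7, and 11 and 9 (26.5% and 26.5%) in DDC28. Relative to the median of all genes, the members' median was -0.20 in BDL7, -0.27 in BDL28, -0.16 in DDC7 and -0.14 in DDC28 on the authors' scale, and -0.19, -0.27, -0.16 and -0.13 with total-count scaling. With quantile normalization the same differences were 0.06, -0.17, 0.06 and 0.04, so they kept their sign under all 3 scalings in BDL28 and turned in the other 3 comparisons. Below, rose and fell refer to calls on the authors' scale, and a call is said to be kept where total-count scaling, quantile normalization and edgeR with TMM factors each also called it in the same direction. By that measure 2 of 2 rises and 0 of 17 falls were kept in BDL7, 1 of 1 and 4 of 18 in BDL28, 4 of 4 and 1 of 9 in DDC7, 7 of 7 and 3 of 12 in DDC28, and the 1 rise in CsA7. Without the filter on low values the calls of Psma2, Psma6, Psmb3, Psmc6, Psmd1 and Psme4 in BDL7 (adjusted p = 0.0608 to 0.126), Psmb7 in BDL28 (adjusted p = 0.0632), Psmb4 and Psme3 in DDC7 (adjusted p = 0.0689 to 0.0831) and Psmd14 in DDC28 (adjusted p = 0.0658) were lost. With only the groups compared in the fit those of Psmd1 in BDL7 (adjusted p = 0.0765), Psmb7 and Psmd12 in BDL28 (adjusted p = 0.0774 to 0.13), Psme3 in DDC7 (adjusted p = 0.0546) and Psma1, Psma2 and Psma7 in DDC28 (adjusted p = 0.0575 to 0.0751) were.

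**Figure D2:**
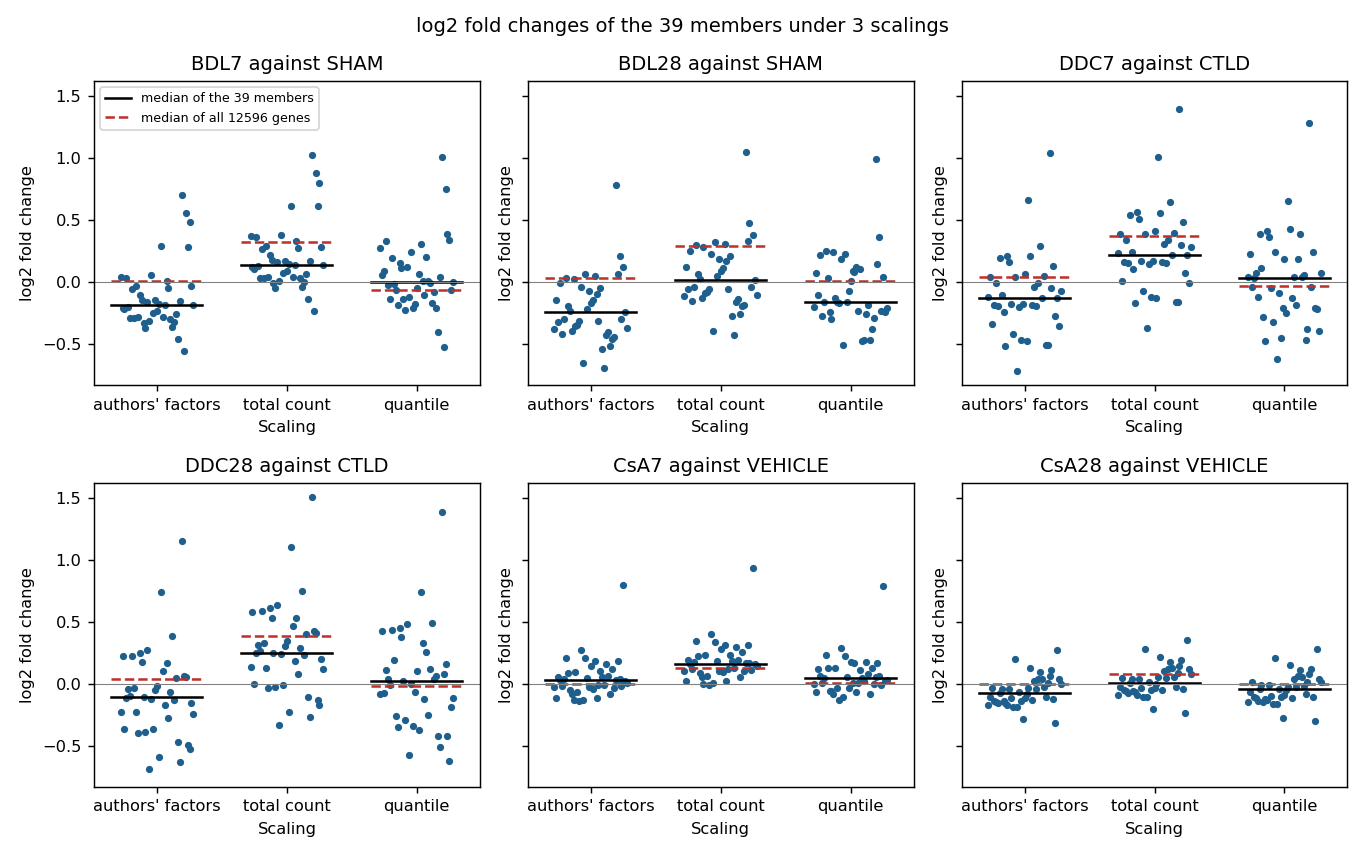
Each point is the log2 fold change of 1 of the 39 members, under the authors' factors, total-count scaling and quantile normalization, in the 6 comparisons; the black line is the members' median and the dashed red line the median of all 12596 genes. In BDL7 the members' median moves from -0.19 to 0.14 and 0.00235, and Psmd8 is the highest point in all panels for ligation and DDC.

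The median log2 fold change of the 14 core subunits was -0.20 in BDL7, -0.31 in BDL28, -0.14 in DDC7, -0.10 in DDC28, -0.02 in CsA7 and -0.13 in CsA28. That of the 17 regulatory particle subunits was -0.19 in BDL7, -0.21 in BDL28, -0.17 in DDC7, -0.12 in DDC28, 0.05 in CsA7 and -0.04 in CsA28. The 4 activators stood at 0.13 in BDL7, -0.27 in BDL28, -0.17 in DDC7, -0.20 in DDC28, 0.02 in CsA7 and -0.06 in CsA28. In BDL7 the core had 0 rises and 7 falls and the regulatory particle 1 and 8, and with total-count scaling these became 5 and 0 for the core and 4 and 0 for the regulatory particle. In BDL28 the counts were 0 and 8 for the core and 1 and 8 for the regulatory particle (3 and 0, 3 and 3 with total-count scaling). In DDC7 they were 1 and 3, and 2 and 5 (7 and 0, 8 and 1). In DDC28 they were 3 and 4, and 3 and 6 (9 and 0, 8 and 3). Of all genes 20.2% rose and 18.5% fell in BDL7, and 24.1% and 22.7% did in BDL28. Under DDC these shares were 24.7% and 22.1% at day 7 and 27.9% and 24.7% at day 28. With total-count scaling 39.1% and 7.32% were called higher and lower in BDL7, and 38.3% and 13.3% in BDL28. On that scale DDC7 had 44.3% and 9.61% and DDC28 46.3% and 12.7%. A difference between the classes was not tested.

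The alpha ring forms the outer gates of the core, and its 7 members differ in sequence but share a fold. None rose and 3 fell in BDL7 (Psma2, Psma3, Psma6), none rose and 4 fell in BDL28 (Psma1, Psma3, Psma5, Psma6), 1 fell in DDC7 (Psma3), and in DDC28 2 fell (Psma1, Psma3) and 2 rose (Psma2, Psma7). Psma1 held 506, 479, 505 and 524 normalized counts in the SHAM libraries, 572, 574, 468 and 476 in BDL7 and 389.6, 378, 396 and 387 in BDL28. All 4 BDL28 libraries lay below all SHAM and BDL7 libraries, and its log2 change was -0.38 ± 0.08 (adjusted p = 0.000161) against SHAM and 0.05 ± 0.08 in BDL7 (adjusted p = 0.686). It held 437, 533, 504 and 504 in CTLD, 489, 463, 418 and 454 in DDC7 and 402, 466, 389.8 and 437 in DDC28, which overlap. Its fall in DDC28 (log2 -0.22 ± 0.08, adjusted p = 0.0169) turned to 0.14 with total-count scaling and was not called without CTLD replicate 2 (-0.18), DDC28 replicate 1 (-0.20) or DDC28 replicate 3 (-0.18). Psma1 had no call under cyclosporin A, with 459 to 504 in VEHICLE, 461 to 489 in CsA7 and 410.3 to 469.7 in CsA28.

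Psma3 fell in all 4 ligation and DDC comparisons. It held 1097, 1018, 1076 and 995 in SHAM, 887, 974, 923 and 831 in BDL7 and 754, 899, 760.5 and 966 in BDL28, and all 8 ligation libraries lay below the 4 sham libraries. It held 1110.0, 1127, 1148 and 1157 in CTLD, 938, 930.1, 927 and 806 in DDC7 and 906, 803, 938 and 892 in DDC28, again without overlap. The log2 changes were -0.21, -0.32, -0.34 and -0.36 (adjusted p = 0.024, 0.000784, 0.000397 and 0.000129), and 0.11, -0.05, 0.01 and -0.0014 with total-count scaling, which called none of them lower. The BDL7 call of Psma3 was lost without BDL7 replicate 1 or 4 or SHAM replicate 1 or 3 (-0.17 to -0.20). Psma6 was the alpha member with the largest fall in BDL7: 301, 274, 286 and 300.0 in SHAM and 257, 246, 214 and 236 in BDL7, without overlap. For Psma6 the log2 change was -0.29 ± 0.10 (adjusted p = 0.0284), and 0.04 with total-count scaling. Leaving out BDL7 replicate 3 or 4 or SHAM replicate 1 or 4 ended that call (-0.28 to -0.24). Psma5 had the largest fall in BDL28: 365, 323, 319 and 336 in SHAM and 224, 256, 253 and 273 in BDL28. For Psma5 the log2 change was -0.41 ± 0.09 (adjusted p = 0.00017). All 4 values were below SHAM, but the VEHICLE and CTLD controls held only 256 to 274 and 267 to 286. Psma2 and Psma7 rose in DDC28, against Psma1 and Psma3, and both rises were kept under the other scalings. Psma2 held 470.3, 586, 577 and 529 in CTLD and 547, 649.5, 641 and 686 in DDC28. For Psma2 the log2 change was 0.22 ± 0.08 (adjusted p = 0.02). The libraries of the 2 groups overlap, and the call was lost without CTLD replicate 1 (0.16) or DDC28 replicate 4 (0.18). Psma7 held 505, 562, 488 and 519 in CTLD and 552, 697, 579 and 604 in DDC28, with 1 overlapping library in each group. For Psma7 the log2 change was 0.23 ± 0.08 (adjusted p = 0.0215). That call was lost without CTLD replicate 3 (0.20) or DDC28 replicate 2 (0.16). Of the other calls in this ring, that of Psma2 in BDL7 (log2 -0.20; 0.12 with total counts) was lost without any of 7 libraries (-0.18 to -0.21) and that of Psma6 in BDL28 (log2 -0.30) without BDL28 replicate 1 (-0.24). Psma4 was called in none of the 6 comparisons (log2 -0.18 to 0.04).

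Of the 7 beta subunits, 4 fell in BDL7 (Psmb1, Psmb3, Psmb6, Psmb7), 4 in BDL28 (Psmb3, Psmb5, Psmb6, Psmb7) and 2 in each DDC group (Psmb3, Psmb7), while Psmb4 rose in both DDC groups. The 3 catalytic subunits, Psmb5, Psmb6 and Psmb7, differed in their calls. Psmb5 held 684, 635, 629 and 618 in SHAM, 596, 672, 543 and 521 in BDL7 and 520.4, 540.2, 447 and 506 in BDL28, and only BDL28 lay wholly below SHAM. For Psmb5 the log2 change was -0.35 ± 0.08 (adjusted p = 0.000303), and -0.09 with total-count scaling. It held 529, 549, 531 and 584 in CTLD, 605, 605, 602 and 642 in DDC7 and 638, 657, 604 and 579 in DDC28, with log2 changes of 0.16 ± 0.08 and 0.18 ± 0.08 that did not pass (adjusted p = 0.0827 and 0.0551). With total-count scaling Psmb5 was called higher in both DDC groups. Its promoter holds the antioxidant response element core shown above, as does that of Psmb6, and a link to these values was not tested. Psmb6 held 510.5, 492, 482 and 478 in SHAM, 397, 444, 363 and 365 in BDL7 and 388, 460.3, 338 and 372 in BDL28, with no overlap. For Psmb6 the log2 changes were -0.33 ± 0.08 and -0.34 ± 0.08 (adjusted p = 0.00195 and 0.00101), and -0.0022 and -0.08 with total-count scaling. The other controls held 410.3 to 449 (VEHICLE) and 392 to 455 (CTLD) of Psmb6, below SHAM, and it had no call under DDC, with 365, 372, 383 and 386 in DDC7 and 391, 450.1, 386 and 356 in DDC28. Psmb7 fell in all 4 comparisons. It held 290.4, 309, 294 and 290.5 in SHAM, 221, 277, 189 and 235 in BDL7 and 232, 334, 226 and 182 in BDL28. Under DDC it held 329, 343, 368 and 374 in CTLD, 277, 244, 237 and 305 in DDC7 and 239, 334, 274 and 245 in DDC28. In BDL28 and in DDC28 1 library reached its controls. Its log2 changes were -0.37, -0.31, -0.42 and -0.38 (adjusted p = 0.0164, 0.0354, 0.00597 and 0.00958), against -0.05, -0.05, -0.07 and -0.02 with total-count scaling. The BDL7 call of Psmb7 was lost without BDL7 replicate 3 (-0.28), and the BDL28 call without any of 7 of the 8 libraries (-0.32 to -0.19). Psmb7 overlaps Nek6 on the opposite strand, and the strand setting of the authors' counting is not given in the sources used here.

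Psmb3, a structural beta subunit, had the largest beta change in BDL28 and in both DDC groups. It held 223, 283, 227 and 242 normalized counts in CTLD, 166, 183, 179 and 153 in DDC7 and 184, 172, 193 and 193 in DDC28, and all 8 DDC libraries lay below all CTLD libraries. For Psmb3 the log2 changes were -0.51 ± 0.10 and -0.39 ± 0.10 (adjusted p = 0.000108 and 0.00176). It held 242, 251, 241 and 237 in SHAM and 158, 179, 189 and 219 in BDL28. In BDL28 the log2 change of Psmb3 was -0.39 ± 0.10 (adjusted p = 0.00223). With total-count scaling these 3 changes were -0.17, -0.03 and -0.13, not called. Psmb4, also structural, went the other way under DDC: 460.2, 507, 493 and 517 in CTLD, 592, 539, 563 and 602 in DDC7 and 525, 631, 559.8 and 646 in DDC28. For Psmb4 the log2 changes were 0.22 ± 0.09 and 0.25 ± 0.09 (adjusted p = 0.0379 and 0.0135). Both rises were kept under the other scalings, and the DDC7 rise was lost without any of 5 libraries (CTLD replicates 1 and 3, DDC7 replicates 1, 3 and 4; 0.18 to 0.22) and the DDC28 rise without DDC28 replicate 4 (0.21). In BDL7 the call of Psmb1 (log2 -0.29; 0.03 with total counts) was lost without BDL7 replicate 4 (-0.20) and that of Psmb3 (log2 -0.28; 0.05 with total counts) without any of 6 libraries. Psmb2 was called in none of the 6 comparisons (log2 -0.24 to -0.03).

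The ATPase ring of the base threads substrates into the core. Psmc2 was the ATPase that changed most, and it fell in all 4 ligation and DDC comparisons. It held 367, 349, 365 and 396 in SHAM, 297, 313, 290.1 and 291 in BDL7 and 229, 219, 237 and 254 in BDL28, so the BDL28 libraries lay below those of BDL7, which lay below SHAM. It held 368, 445, 476 and 394 in CTLD, 264, 293, 230.2 and 235 in DDC7 and 258, 283, 247 and 254 in DDC28, and the 8 DDC libraries did not overlap CTLD. The log2 changes were -0.31 ± 0.09, -0.65 ± 0.09, -0.72 ± 0.09 and -0.69 ± 0.09 (adjusted p = 0.00411, 1.08e-07, 2.19e-08 and 3.04e-08). The falls in BDL28, DDC7 and DDC28 were kept under all scalings (-0.39, -0.37 and -0.33 with total counts), and that in BDL7 turned to 0.01. Under cyclosporin A it held 456, 401, 405 and 409 in VEHICLE, 412, 381, 393 and 347 in CsA7 and 370.2, 335, 372 and 394 in CsA28, not called (log2 -0.12 and -0.18). Psmc4 fell in both DDC groups: 179, 210.5, 198 and 193 in CTLD, 149.6, 155, 134 and 128 in DDC7 and 136, 152, 155 and 164 in DDC28. For Psmc4 the log2 changes were -0.46 ± 0.12 and -0.36 ± 0.12 (adjusted p = 0.00124 and 0.00803), and -0.11 and -0.0046 with total counts, not called. It held 166, 170.0, 138 and 179 in SHAM, 124, 155, 133 and 138 in BDL7 and 116, 170.0, 136 and 145 in BDL28 (adjusted p = 0.0906 and 0.13). The difference of its ligation and DDC effects did not pass either (adjusted p = 0.443 and 0.593). Psmc1 went against Psmc2 and Psmc4 in DDC28, with 601, 609, 608 and 558 in CTLD and 703, 689, 741 and 749.5 in DDC28. This rise (log2 0.28 ± 0.07, adjusted p = 0.00121) was kept under the other scalings. Psmc6 fell in BDL7 (log2 -0.23 ± 0.08, adjusted p = 0.0201; 0.09 with total counts; lost without BDL7 replicate 4, -0.20, or SHAM replicate 2, -0.21), and Psmc3 and Psmc5 were called in none of the 6.

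The non-ATPase subunits include ubiquitin receptors, scaffold and lid. Of these 11 members 6 fell in BDL7, 7 in BDL28, 3 in DDC7 and 4 in DDC28. Psmd8 rose in each of these groups, and Psmd3 rose in both DDC groups. Psmd4, the ubiquitin receptor of the base, held 606, 666, 561 and 604 in SHAM, 506, 509, 472 and 463 in BDL7 and 456, 487, 450.4 and 451 in BDL28 and fell in both. For Psmd4 the log2 changes were -0.32 ± 0.09 and -0.40 ± 0.09 (adjusted p = 0.00289 and 0.000225), and 0.0046 and -0.14 with total counts. It held 504, 560.2, 540.2 and 512 in CTLD, 527, 461, 442 and 507 in DDC7 and 498, 489, 476 and 476 in DDC28, with no call. The SHAM libraries were the high ones: all 4 exceeded all 8 VEHICLE and CTLD libraries (429 to 491 and 504 to 560.2). Psmd11, a lid scaffold, held 798, 787, 807 and 759 in SHAM, 658, 650.0, 666 and 624 in BDL7 and 726, 819.5, 667 and 747 in BDL28, and fell in BDL7. For Psmd11 the log2 change was -0.28 ± 0.09 (adjusted p = 0.0115), and 0.05 with total counts, 0.01 with quantiles. In BDL28 it did not pass (adjusted p = 0.398). Under DDC it held 718, 743, 632 and 699 in CTLD, 840.0, 799.9, 722 and 866 in DDC7 and 712, 799.7, 715 and 781 in DDC28 (adjusted p = 0.0503 and 0.312). Psmd14, the deubiquitinase of the lid, held 217, 181, 156 and 202 in SHAM, 192, 188, 180.5 and 166 in BDL7 and 152, 128, 110.5 and 131 in BDL28. Only the BDL28 libraries lay below SHAM (log2 -0.53 ± 0.10, adjusted p = 2.89e-05), a fall kept under the other scalings (-0.27 with total counts), with -0.05 in BDL7 (adjusted p = 0.749). It held 177, 173, 198 and 189 in CTLD, 163, 163, 167 and 152 in DDC7 and 147, 147, 158 and 157 in DDC28. A fall in DDC28 (log2 -0.27 ± 0.10, adjusted p = 0.018) turned to 0.08 with total counts and was lost without CTLD replicate 3 (-0.24).

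Psmd3, a scaffold of the lid, fell under ligation and rose under DDC. It held 497, 473, 485 and 439 in SHAM, 394, 378, 332 and 373 in BDL7 and 347, 372, 354 and 339.8 in BDL28. For Psmd3 the log2 changes were -0.36 ± 0.08 and -0.42 ± 0.08 (adjusted p = 0.000427 and 4.31e-05), and -0.03 and -0.16 with total counts, not called. It held 324, 291, 325 and 342 in CTLD, 391, 411, 386 and 386 in DDC7 and 437, 378, 428 and 435 in DDC28 (log2 0.30 ± 0.08 and 0.39 ± 0.08, adjusted p = 0.00242 and 0.000102), and both rises were kept under the other scalings. The treated levels were 369 ± 26.3 (SD, n = 4) in BDL7, 353 ± 13.8 in BDL28, 393 ± 11.9 in DDC7 and 419.5 ± 27.8 in DDC28, while the controls were 473 ± 25.0 in SHAM and 321 ± 21.0 in CTLD. Of the other non-ATPase members, Psmd6 fell in all 4 ligation and DDC comparisons (log2 -0.50 to -0.45; -0.19 to -0.11 with total counts, called in none). Psmd1 fell in BDL7 and both DDC groups (log2 -0.18, -0.47 and -0.59; 0.15, -0.12 and -0.23 with total counts, so only the DDC28 fall was kept; the BDL7 call was lost without any of 5 libraries). Psmd7 fell in BDL28 and both DDC groups (log2 -0.44, -0.50 and -0.63), with the DDC28 fall kept. Psmd2 fell in both ligation groups (log2 -0.29 and -0.69), with the BDL28 fall kept and the BDL7 value at 0.03 with total counts. Psmd12 fell in BDL28 (log2 -0.31; lost without BDL28 replicate 3, -0.20, or SHAM replicate 1, -0.28), and Psmd13 was called in none.

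Psmd8, a lid subunit, was the member that changed most, and it rose in every ligation and DDC comparison. It held 557, 557, 545 and 563 normalized counts in SHAM, 945, 1058, 858 and 777 in BDL7 and 999.6, 1059, 930.5 and 858 in BDL28, and the lowest ligation library exceeded the highest sham library. It held 446, 459.8, 499.8 and 466 in CTLD, 843, 960.5, 1019 and 1054 in DDC7 and 981, 1003, 983 and 1203 in DDC28, also without overlap. Its values were 407, 454, 479 and 491 in VEHICLE, 448, 470.1, 529.6 and 429.6 in CsA7 and 465, 454, 468 and 523 in CsA28, which overlap. The log2 changes were 0.70 ± 0.09 in BDL7, 0.79 ± 0.09 in BDL28, 1.04 ± 0.09 in DDC7 and 1.15 ± 0.09 in DDC28 (adjusted p = 1.77e-07, 9.24e-09, 2.84e-11 and 1.32e-12), and 0.04 and 0.06 under cyclosporin A (adjusted p = 0.899 and 0.886). All 4 rises were kept under the other scalings (1.02, 1.05, 1.39 and 1.51 with total counts) and without any single library; DDC28 replicate 4 was the highest, and without it the DDC28 change was 1.08. Neither the day nor the model difference passed for Psmd8: log2 0.09 ± 0.09 between BDL28 and BDL7 (adjusted p = 0.51) and 0.11 ± 0.09 between DDC28 and DDC7 (0.585). The values were -0.34 ± 0.13 and -0.36 ± 0.13 for the ligation minus the DDC effect at days 7 and 28 (0.0939 and 0.0663). No annotated gene overlaps Psmd8 in GENCODE M21, an annotation of GRCm38.

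**Figure D3:**
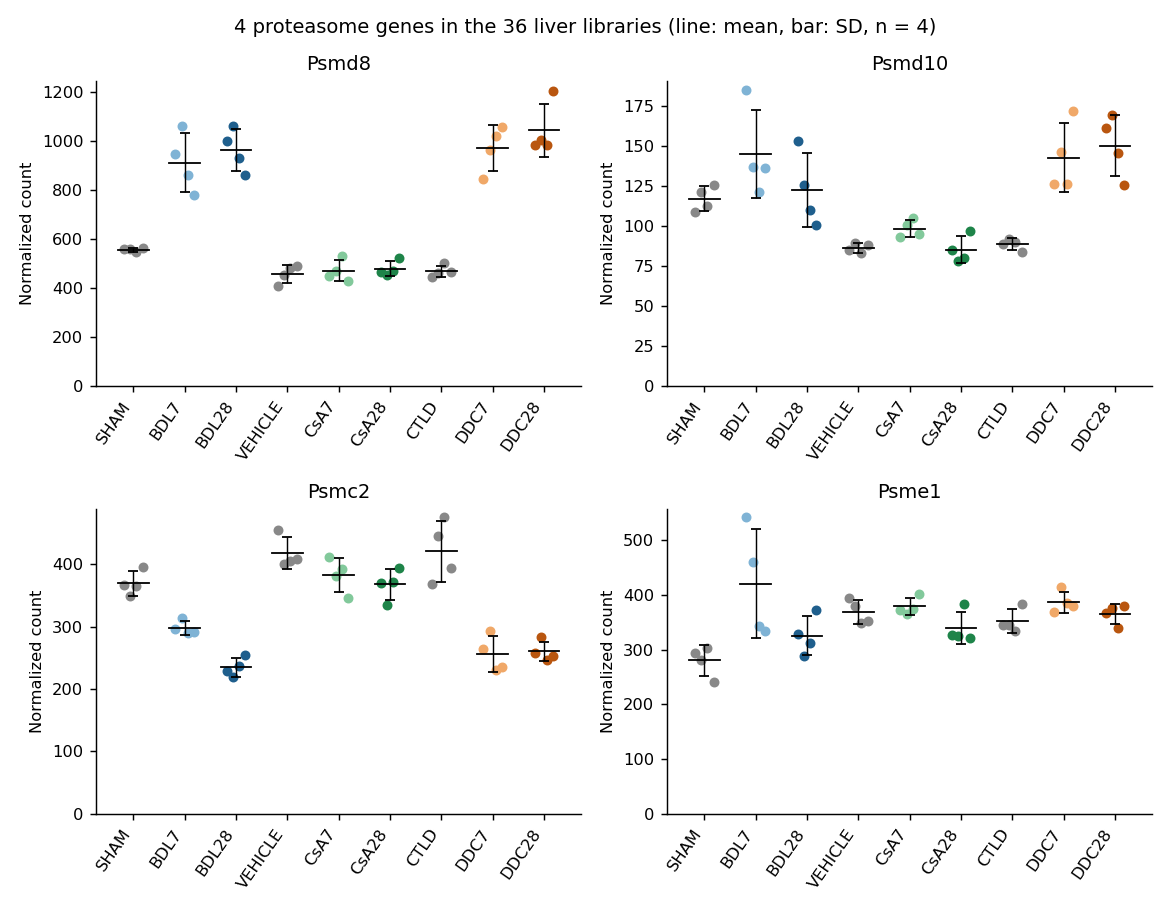
Normalized counts of Psmd8, Psmd10, Psmc2 and Psme1 in each of the 36 libraries, by group; points are libraries, the line is the mean and the bar the SD of 4. Psmd8 lies at 777 or above in the 16 ligation and DDC libraries and at 563 or below in the other 20, and Psmc2 is lowest in BDL28.

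A ratio of members within a library does not depend on a library's scaling factor, though quantile normalization can change it. Each member was also set against the mean of the other 38 on the log2 scale. For Psmd8 this was 0.78 ± 0.02 (SD, n = 4) in SHAM, 1.62 ± 0.12 in BDL7, 1.80 ± 0.11 in BDL28, 0.54 ± 0.06 in CTLD, 1.71 ± 0.18 in DDC7, 1.80 ± 0.14 in DDC28, 0.57 ± 0.18 in VEHICLE, 0.55 ± 0.12 in CsA7 and 0.69 ± 0.06 in CsA28. The ligation and DDC libraries began at 1.47 and all others ended at 0.81. Psmd10 moved the same way, by 0.78 in DDC7 and 0.85 in DDC28, and Psmc2 the opposite way, by -0.46 in BDL28, -0.64 in DDC7 and -0.62 in DDC28. The difference between treated and control means on this relative scale was under 0.25 in size for 30 of 39 in BDL7, 28 in BDL28, 23 in DDC7, 20 in DDC28, 38 in CsA7 and 36 in CsA28. On it the treated libraries did not overlap their controls for 14 in BDL7 (5 higher, 9 lower; 37.6% of all genes set against the members' mean), 13 in BDL28 (5 and 8; 39.9%), 18 in DDC7 (10 and 8; 43.9%) and 18 in DDC28 (10 and 8; 47.0%). Across the 9 groups the highest group mean was over 2 times the lowest for Psmd8 alone (2.28 times), 1.5 to 2 times for 12 members and under 1.5 times for 26, with a median of 1.41. Within groups the members varied little, with a median CV of 7.12%.

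The 3 chaperones bind ATPases while the base is assembled. Psmd10 (gankyrin), known as an oncoprotein in liver, rose in both DDC groups. It held 89.2, 92.3, 90.0 and 84.0 in CTLD, 126, 146, 127 and 172 in DDC7 and 161, 169.5, 146 and 126 in DDC28, and all DDC libraries exceeded all CTLD libraries. For Psmd10 the log2 changes were 0.67 ± 0.12 and 0.75 ± 0.12 (adjusted p = 3.88e-05 and 5.23e-06). It held 109, 122, 113 and 126 in SHAM, 186, 137, 122 and 137 in BDL7 and 154, 126, 110.5 and 101 in BDL28. For Psmd10 the log2 changes were 0.29 ± 0.12 and 0.05 ± 0.12 (adjusted p = 0.06 and 0.77). The DDC rises were kept under the other scalings, and SHAM itself was above the 8 VEHICLE and CTLD libraries (83.2 to 89.8 and 84.0 to 92.3). Psmd5 fell in BDL28: 187, 156, 170.4 and 185 in SHAM and 105, 116, 137 and 131 in BDL28 (log2 -0.52 ± 0.11, adjusted p = 0.000287), a fall kept under the other scalings. Its values were 169.6, 146, 137 and 134 in BDL7, with no call, and its log2 changes under DDC were 0.05 and 0.05. Psmd9 fell in BDL7 (175, 195, 207 and 226 in SHAM and 130.3, 136, 149.6 and 128 in BDL7; log2 -0.55 ± 0.14, adjusted p = 0.00132; -0.23 with total counts, not called) and held 165, 261, 265 and 170.4 in BDL28. Psmd9 overlaps Hpd, a liver gene with a mean of 1015 normalized counts, on the opposite strand, and Psmd5 overlaps Cutal, so reads of these pairs may be mixed where strand was not used.

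Psme1 and Psme2 form the interferon-inducible activator (PA28) that works with immunoproteasomes, Psme3 a nuclear form of it, and Psme4 an activator linked to acetylated histones. Psme1 held 294, 282, 303 and 241 in SHAM, 542, 459.8, 343 and 334 in BDL7 and 328, 288, 311 and 373 in BDL28, and all BDL7 libraries exceeded SHAM, BDL7 replicates 1 and 2 most. In BDL7 the log2 change of Psme1 was 0.56 ± 0.11 (adjusted p = 7.13e-05). This rise was kept under the other scalings and without any single library, and in BDL28 the change was 0.21 ± 0.11 (adjusted p = 0.0986). SHAM was the low group for Psme1, which held 394, 379.5, 349 and 353 in VEHICLE and 346, 345, 334 and 383 in CTLD. There was no call under DDC, with 369, 414, 385 and 379 in DDC7 and 366, 375, 339 and 379 in DDC28. Psme2 held 184, 195, 189 and 229 in SHAM, 322, 266, 186 and 219.8 in BDL7 and 189.9, 156, 144 and 159 in BDL28, and neither ligation change passed (adjusted p = 0.148 and 0.118). It held 232, 278, 254 and 278 in CTLD, 196, 229, 197 and 244 in DDC7 and 210.0, 240.0, 155 and 149.7 in DDC28. A fall of Psme2 in DDC28 (log2 -0.49 ± 0.16, adjusted p = 0.00888; -0.13 with total counts, not called) was lost without DDC28 replicate 4 (-0.39). Psme3 held 86.7, 85.6, 91.5 and 87.8 in SHAM, 85.2, 89.5, 85.8 and 83.2 in BDL7 and 87.6, 61.6, 77.1 and 72.9 in BDL28. Under DDC it held 82.1, 108, 107 and 91.7 in CTLD, 77.0, 91.9, 71.8 and 64.5 in DDC7 and 81.0, 76.9, 108 and 83.6 in DDC28. Its groups overlap, and its fall in DDC7 (log2 -0.35 ± 0.12, adjusted p = 0.0203; -0.0049 with total counts) was lost without CTLD replicate 2 or 3 or DDC7 replicate 3 or 4 (-0.33 to -0.27). Psme4 held 436, 436, 421 and 433 in SHAM, 378, 371, 381 and 387 in BDL7 and 309, 355, 333 and 341 in BDL28, without overlap. For Psme4 the log2 changes were -0.19 ± 0.07 and -0.37 ± 0.07 (adjusted p = 0.0404 and 8.01e-05), and 0.14 and -0.11 with total counts. The BDL7 call of Psme4 was lost without any of the 8 libraries (-0.20 to -0.18). Psme4 held 433, 442, 437 and 416 in CTLD, 446, 384, 386 and 438 in DDC7 and 368, 383, 354 and 354 in DDC28, where it fell. For Psme4 the log2 change was -0.24 ± 0.07 (adjusted p = 0.00534), and 0.12 with total counts. Psme2b was called in none of the 6 comparisons; its highest log2 change was 0.80 ± 0.29 in CsA7 (adjusted p = 0.119).

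From BDL7 to BDL28 8 of 39 members (20.5%) fell and 1 (2.56%) rose, where 16.7% of all genes fell and 14.0% rose, so the share that fell was near that of all genes and the share that rose was below it. All 9 calls were kept under the other scalings: Psma1 (-0.42), Psmb5 (-0.21), Psmc2 (-0.34), Psmd2 (-0.39), Psmd7 (-0.29), Psmd14 (-0.49), Psme1 (-0.34) and Psme2 (-0.59) fell on the log2 scale, and Psmd9 rose (0.62). Of these, the call of Psmb5 was lost without BDL28 replicate 3 (-0.15) or 4 (-0.21) or BDL7 replicate 1 (-0.20) or 2 (-0.14), that of Psmd7 without BDL28 replicate 3 (-0.22). With only the groups compared in the fit the calls of Psmb5, Psmd7 and Psme1 were lost, and without the filter on low values that of Psmb5. The call of Psme1 was lost without BDL28 replicate 2 (-0.29) or BDL7 replicate 1 (-0.21) or 2 (-0.29). The immunoproteasome beta subunits, which replace the catalytic ones after interferon, fell over the same interval. In SHAM Psmb8 held 89.5, 75.7, 80.0 and 67.6, Psmb9 107, 96.8, 101 and 71.2 and Psmb10 67.4, 62.1, 55.8 and 55.7. BDL7 replicates 3 and 4 lay within or below the SHAM range for Psmb8 and Psmb9, while all BDL7 libraries exceeded SHAM for Psmb10. Psmb8 held 197, 118, 77.8 and 80.9 in BDL7 and 80.7, 29.4, 26.0 and 42.9 in BDL28 (log2 -1.42, adjusted p = 8.09e-05). Psmb9 held 298, 149.5, 62.8 and 87.0 in BDL7 and 52.1, 32.2, 28.8 and 27.9 in BDL28 (log2 -1.85, adjusted p = 1.91e-05). Psmb10 held 152, 104, 82.8 and 93.1 in BDL7 and 39 to 75.8 in BDL28 (log2 -0.89, adjusted p = 0.00354). BDL7 replicate 1 was the highest BDL7 library for Psme1, Psme2 and all 3 of these, and the 3 calls held without any single library and under the other scalings. The 12 interferon response genes of a list chosen with earlier results known all fell between BDL7 and BDL28 (log2 -2.66 to -0.40), as did Irf1 (-1.21), a transcription factor that acts on such genes. The 5 cell cycle genes fell as well (median -3.16), as did 5 of 10 leukocyte markers; their part was not tested. From DDC7 to DDC28 1 of 39 members was called (all genes 5.70%): Psmc1 rose by 0.23 on the log2 scale (adjusted p = 0.0412), with 4 members at an unadjusted p under 0.05 and 0 called by edgeR. Quantile normalization and total-count scaling kept it. It was lost without the filter on low values, with only the groups compared in the fit, and without DDC28 replicate 3 or 4 or DDC7 replicate 2, 3 or 4 (0.19 to 0.25). From CsA7 to CsA28 0 of 39 were called (all genes 2.45%), with 5 at an unadjusted p under 0.05 in limma and in edgeR, which also called 0.

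**Figure D4:**
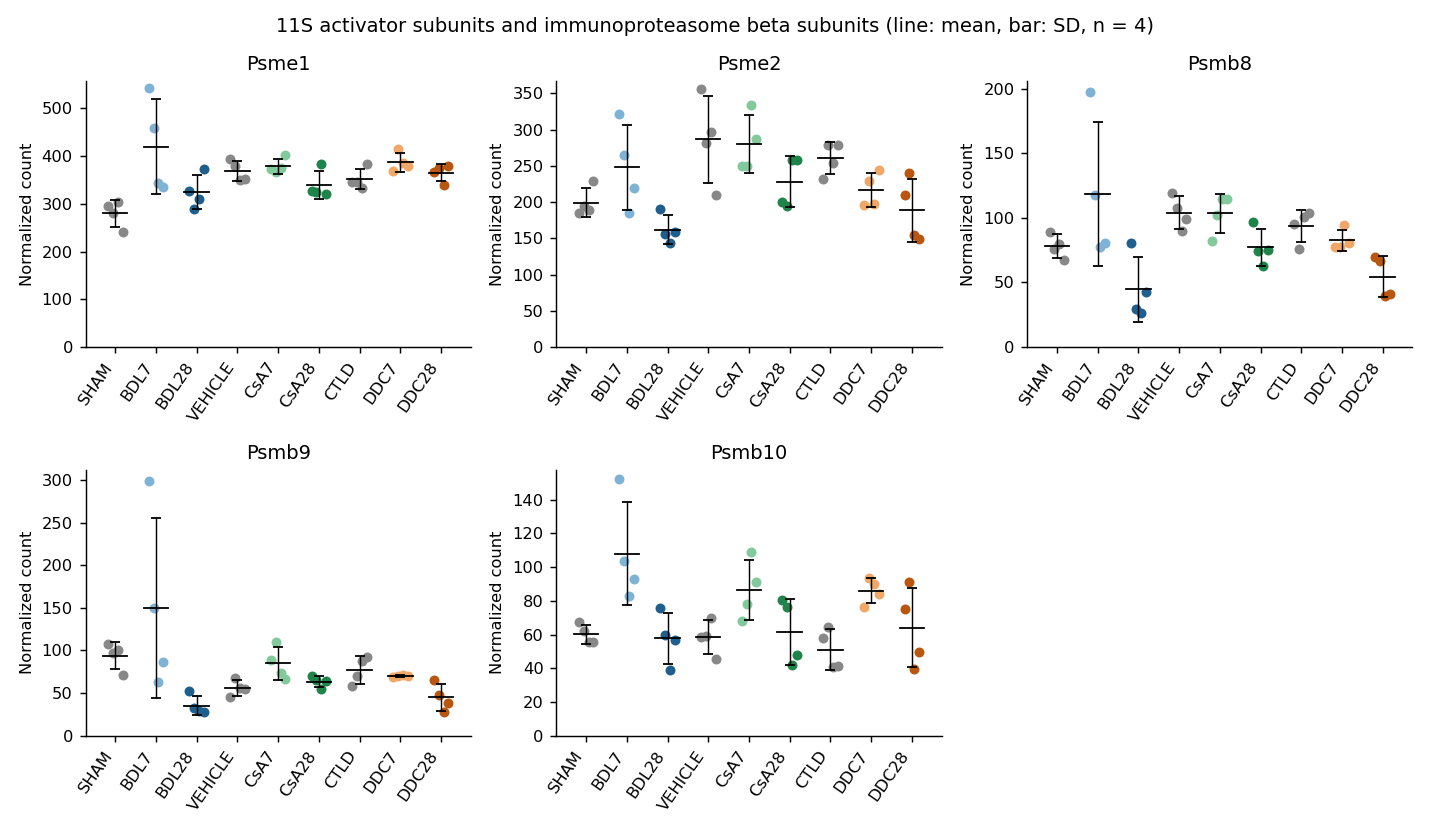
Normalized counts of the activator subunits Psme1 and Psme2 and of the immunoproteasome subunits Psmb8, Psmb9 and Psmb10 in each library, by group, with the mean (line) and SD (bar) of 4. In BDL7 the first library reaches 542 for Psme1 and 298 for Psmb9, and the BDL28 means of Psme2, Psmb8 and Psmb9 (162, 44.7 and 35.2) are the lowest of the 9 groups.

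Ligation and DDC effects were compared directly as the difference of the 2 changes. At day 7 it was called for 4 of 39 members (10.3%; all genes 8.46%), for 2 without the filter on low values (Psmc2 and Psmd1 were lost), and for 2 without CTLD replicate 2 or 3, DDC7 replicate 3 or 4, or SHAM replicate 2 or 3. Psmd3 (log2 difference -0.65 ± 0.11, adjusted p = 0.000388) and Psmd11 (-0.49 ± 0.12, 0.0126) were lower under ligation, and Psmc2 (0.41 ± 0.12, 0.0313) and Psmd1 (0.29 ± 0.09, 0.0475) higher, the last not kept under the other scalings. The Psmc2 call was lost without any of 7 libraries (0.34 to 0.40) and that of Psmd1 without any of 12 (0.25 to 0.30), while Psmd3 and Psmd11 passed without each library in turn. At day 28 it was called for 9 of 39 (23.1%; all genes 10.3%), 8 lower and 1 higher under ligation, and for 5 without the filter on low values (Psma2, Psma5, Psmc1 and Psmd5 were lost). Psmd3 (-0.81 ± 0.11, adjusted p = 2.62e-05), Psmd10 (-0.70 ± 0.18, 0.0105), Psmd2 (-0.62 ± 0.11, 0.000729), Psmd5 (-0.56 ± 0.16, 0.021) and Psmb5 (-0.53 ± 0.11, 0.00216) were lower and Psmd1 (0.45 ± 0.09, 0.00271) higher, and these 6 were kept under the other scalings and without each library. Psma2 (-0.36 ± 0.11) was kept under the scalings but was lost without any of 11 libraries, and Psma5 (-0.37 ± 0.12) and Psmc1 (-0.31 ± 0.10) were not kept and were lost without any of 15 and 9 libraries. These differences rest on 4 groups each, SHAM and CTLD included, and these controls themselves differed, as given for them next.

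Among the 3 control groups 18 of 39 members (46.2%) differed by limma's F test, where 19.4% of all genes did; edgeR called 15, and limma called 9 without SHAM replicate 2 or 4 and 9 without the filter on low values. The SHAM mean was the highest of the 3 controls for 20 members, the lowest for 16 and between them for 3. All 4 SHAM libraries lay above the 8 others for 12 members and below them for 5, where they did so for 6.72% and 6.45% of all genes. Psmd2, a scaffold of the base, held 759.6, 719, 719.6 and 739 in SHAM, 426, 491, 489 and 502 in VEHICLE and 505, 607, 547 and 548 in CTLD (adjusted p = 3.84e-06). It held 604, 600.1, 592 and 599.9 in BDL7 and 474, 441, 405 and 510.2 in BDL28. These libraries lay below SHAM and between the lowest and highest of the other controls, save 1 BDL28 library that was lower. Psmd3 was also high in SHAM (mean 473 against 313 and 321, adjusted p = 1.22e-06), as were Psmb5 (642 against 501 and 548, 0.00313) and Psmc1 (659.5 against 488 and 594, 0.00011). Psmd1 was low in SHAM (593 against 774 and 787, 3.15e-05), and so was Psme1 (280.0 against 369 and 352, 0.0118). Of the 17 members that fell in BDL7, 7 had a BDL7 mean inside the range of the 8 VEHICLE and CTLD libraries, and of the 18 that fell in BDL28, 5 did (Psmd2, Psmd4 and Psmb5 among them). Surgery, gavage and diet, and any processing that went with them, cannot be told apart in these controls. Of the 18 differences 10 were kept under the other scalings and 7 passed without each library in turn; the difference of Psme1 was not kept and was lost without SHAM replicate 4.

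**Figure D5:**
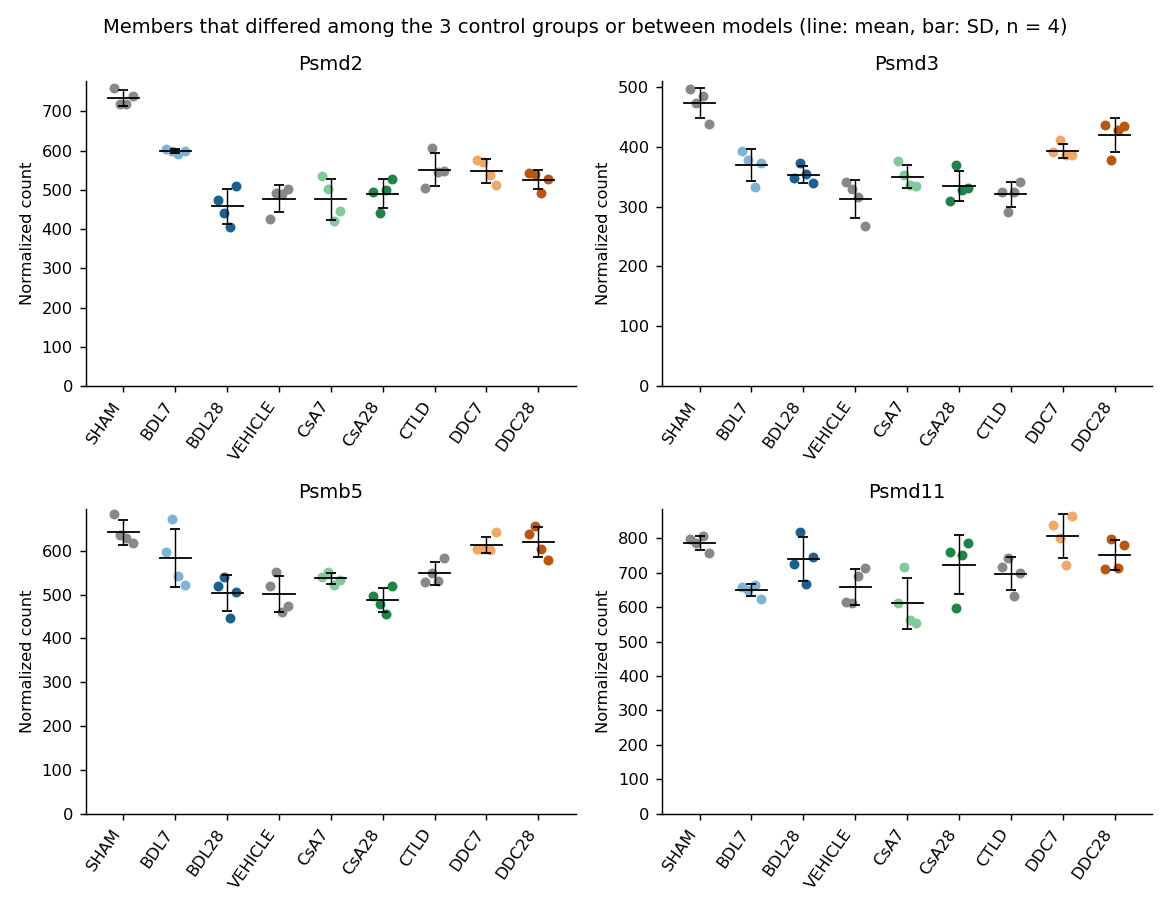
Normalized counts of Psmd2, Psmd3, Psmb5 and Psmd11 in each library, by group, with the mean (line) and SD (bar) of 4. SHAM lies above VEHICLE and CTLD in all 4 panels (Psmd2 mean 734 against 477 and 552). The BDL7 and BDL28 means lie inside the range of these other control libraries for Psmd2, Psmb5 and Psmd11, and above it for Psmd3.

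Under cyclosporin A the 1 call was Psmc1 in CsA7: 513, 516, 453 and 469 in VEHICLE and 564, 631, 576 and 585 in CsA7, without overlap. VEHICLE was the lowest control group for Psmc1, with a mean of 488 against 593.9 in CTLD and 659.5 in SHAM. For Psmc1 the log2 change was 0.27 ± 0.07 (adjusted p = 0.0212). The rise was kept under the other scalings and was lost without CsA7 replicate 2 (0.24) or 4 (0.27) or VEHICLE replicate 3 (0.24) or 4 (0.25). It was also lost without the filter on low values (adjusted p = 0.0589) and with only the groups compared in the fit (adjusted p = 0.11). In CsA28 the values were 567, 560.3, 541 and 569. The CsA28 change of 0.20 ± 0.07 did not pass (adjusted p = 0.325). The share of all reads in the members was 0.530% ± 0.0256 (SD, n = 4) in CsA7 against 0.473% ± 0.0151 in VEHICLE, and with total-count scaling 5 members were called higher in CsA7. A p that misses the threshold does not show equal levels: the 39 log2 changes ran from -0.32 to 0.27 in CsA28.

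Genes that work with the proteasome, in lists chosen with earlier results known, were read beside the members. The 5 core assembly factors (Pomp and Psmg1 to Psmg4) had 2 falls in BDL7, 2 falls and 1 rise in BDL28 and 1 fall in each DDC group. Psmg3, a chaperone of the core, fell in all 4 (log2 -0.79, -0.76, -0.41 and -0.41), a fall kept under the other scalings in the ligation groups only. Of 10 tested factors bound to the proteasome, Zfand5, which stimulates degradation by it, rose in DDC7 and DDC28 (0.63 and 0.65) and the deubiquitinase Usp14 fell in BDL28 (-0.51), all kept. Of 6 ubiquitin and E1 genes, 4 fell in DDC7 and 5 in DDC28, where Rps27a, which encodes ubiquitin fused to a ribosomal protein, rose (0.72). Uba1, the main E1 enzyme, fell in BDL7, BDL28, DDC7 and DDC28 (-0.32, -0.53, -0.73 and -0.88; not kept in BDL7), while the falls of the polyubiquitin gene Ubb under DDC (-0.57 and -0.55) were not kept. Among 11 shuttle and segregase genes Ubqln4 fell most under DDC (-1.24 and -1.26), and Ubqln2 (0.71 and 0.97) and the autophagy receptor Sqstm1 (0.96 and 0.44) rose, all kept. Of these 11, 2 rose and 5 fell in each DDC group, 2 and 6 in BDL7 and 1 and 7 in BDL28. Beside these lists, 24.7% of all genes rose and 22.1% fell in DDC7, and 27.9% and 24.7% in DDC28. In ligation 20.2% of all genes rose and 18.5% fell at day 7, and 24.1% and 22.7% at day 28.

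Of the regulators, Nfe2l1 had 132 ± 26.4 normalized counts (SD, n = 4) in SHAM, 131 ± 23.1 in BDL7 and 80.8 ± 28.9 in BDL28, and fell in BDL28 (log2 -0.76, adjusted p = 0.000356), a fall kept under the other scalings. Under DDC it had 144 ± 17.3 in CTLD, 96.5 ± 7.63 in DDC7 and 90.0 ± 9.04 in DDC28 (log2 -0.57 and -0.67), falls that were not kept (-0.22 and -0.31 with total counts). Nfe2l2 rose in all 4 (0.95, 0.66, 0.51 and 0.38), all kept. Of 9 NRF2 targets outside the proteasome 5 rose and 1 fell in BDL7, 6 rose and 2 fell in BDL28, and 6 rose and 0 fell in each DDC group; Nqo1, a quinone reductase, rose by 2.25, 3.46, 2.90 and 3.39. The 6 members with a TGACNNNGC match, Psmb5, Psmb6, Psmc6, Psmd9, Psmd12 and Psme4, had log2 changes of 0.16, -0.17, 0.06, -0.05, -0.18 and -0.07 in DDC7, none called. Of these 6, Psmb6, Psmc6, Psmd9 and Psme4 fell in BDL7, Psmb5, Psmb6, Psmd12 and Psme4 in BDL28 and Psme4 in DDC28. None rose in these 4 comparisons on the authors' scale, and none of these falls was kept under the other scalings. With total-count scaling, those of the 6 called higher included Psmb5 and Psmc6 in both DDC groups, Psmd9 and Psme4 in DDC7 and Psmb6 in DDC28. Among lysosome genes, the cathepsins Ctsd (1.17 and 1.36) and Ctsl (0.93 and 1.05) rose under DDC and were kept. Of the 8 genes of this list 5 rose in DDC7 and 3 in DDC28, with 0 and 1 falls. In ligation 3 rose and 2 fell at day 7, and 2 and 4 at day 28. The shares of all genes that rose and fell were 24.7% and 22.1% in DDC7 and 27.9% and 24.7% in DDC28. They were 20.2% and 18.5% in BDL7 and 24.1% and 22.7% in BDL28. RNA levels do not measure proteasome protein or activity.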

How the data were processed

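RNA from 36 mouse livers (9 groups of 4) was sequenced from the 3' end of transcripts. Values of different genes are not read as relative amounts of their transcripts, and ratios of members are compared between groups only. The authors deposited normalized counts per gene, here the unit signal: counts divided by size factors. Per the submitters' processing notes, STAR 2.7.9a and RSEM 1.3.1 were among the tools, with Trim Galore, UMI-tools 1.1.1 and DESeq2 and the build GRCm39. Their order, settings and use of strand are not stated, nor whether whole values are rounded RSEM estimates. Dividing each column by its smallest step gave whole reads for all values within 0.001, from 2081093 to 3770267 per library, which limits the precision of low genes.

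Of 29546 gene IDs 29121 matched a symbol and 425 did not. Genes with at least 10 in at least 4 libraries (12596) were fitted on log2(value + 1) with limma 3.58.1 in R 4.3.3 (trend and robust variance, 1 term per group over all 36 libraries). In all, 12 contrasts were tested, with Benjamini-Hochberg adjustment over all genes within each contrast. The fit was tested on simulated data: of 200 changed genes among 12596, limma recovered 70% to 76% of 2-fold and 94% to 98% of 4-fold changes in the 6 treatment comparisons. It also called 6 to 13 unchanged genes. Changes under 2-fold, as most of the members' calls were, and a change of many genes at once were not simulated, so these rates do not apply to them. Alternatives were pseudocounts of 0.5 and 5, no filter, total-count scaling, quantile normalization, only the groups compared, edgeR 4.0.16 (quasi-likelihood, TMM) on the recovered reads, a replicate block, and leaving out each library. Promoters came from RefSeq on GRCm38.p6, another build than the submitters' notes name, matched by symbol.

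The members and gene lists were chosen with earlier results of these data known. Genes named in full are 12 chosen for their role (Psma1, Psmb5, Psmb6, Psmb7, Psmc4, Psmd4, Psmd11, Psmd14 and Psme1 to Psme4), in each class and comparison the called member with the largest change and no overlap between the groups, and members called against their class; others with library values, such as Psmd2, were chosen after their values were seen.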

Additional observations from a re-analysis of the deposited data

Results flagged for a closer look

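In 16 of the 405 sets of 4 libraries searched 1 library lay far from the other 3. The search took 39 members and 6 sums of genes in 9 groups, by normalized count. Totals of the members and the immunoproteasome beta subunits were among the sums. Chance flags about 1 in 20 such sets. The far library was the highest for Psma2 in BDL28 replicate 2 (717), Psma5 in CsA7 replicate 2 (281), Psma7 in DDC7 replicate 4 (662), Psmb5 in DDC7 replicate 4 (642), Psmb7 in SHAM replicate 2 (309), Psmc2 in VEHICLE replicate 1 (456), Psmd1 in DDC28 replicate 2 (553), Psmd4 in BDL28 replicate 2 (487), Psmd8 in DDC28 replicate 4 (1203), Psmd13 in DDC28 replicate 4 (357) and Psme1 in CsA28 replicate 3 (382). It was the lowest for Psma3 in DDC7 replicate 4 (806), Psmc1 in CTLD replicate 4 (558), Psmd2 in VEHICLE replicate 1 (426), Psmd3 in DDC28 replicate 2 (378) and Psmd7 in CTLD replicate 1 (393). The rise of Psmd8 in DDC28 was 1.08 on the log2 scale without replicate 4 and 1.15 with it.

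The effects of ligation and of DDC differed, by a test of the difference itself in limma, for 13 pairs of member and day. At day 7 the log2 differences (ligation minus DDC) were 0.41 for Psmc2, 0.29 for Psmd1, -0.65 for Psmd3 and -0.49 for Psmd11. At day 28 they were -0.36 for Psma2, -0.37 for Psma5, -0.53 for Psmb5, -0.31 for Psmc1, 0.45 for Psmd1, -0.62 for Psmd2, -0.81 for Psmd3, -0.56 for Psmd5 and -0.70 for Psmd10. For Psmd3, whose day 28 difference was the largest of the 13 in size, SHAM held 439 to 497 and CTLD 291 to 342 normalized counts. The part of the control difference in these values was not tested.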

How the results depend on the processing

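With total-count scaling 25, 12, 19 and 16 members turned from negative to positive in BDL7, BDL28, DDC7 and DDC28, and with quantile normalization 11, 8, 8 and 7. Those called on either scale were as follows with total-count scaling. In BDL7 they were Psma2 0.12, Psma3 0.11, Psma6 0.0374, Psma7 0.27, Psmb1 0.0346, Psmb2 0.30, Psmb3 0.0455, Psmb4 0.22, Psmc2 0.0142, Psmc6 0.0917, Psmd1 0.15, Psmd2 0.0314, Psmd4 0.00456, Psmd11 0.0459, Psmd14 0.28 and Psme4 0.14. In BDL28 they were Psma4 0.26 and Psmc1 0.23. In DDC7 they were Psma1 0.23, Psma3 0.0118, Psma5 0.34, Psmb1 0.24, Psmd2 0.34, Psmd4 0.22, Psmd9 0.30, Psmd13 0.31 and Psme4 0.28. In DDC28 they were Psma1 0.14, Psma4 0.25, Psma5 0.32, Psma6 0.27, Psmb1 0.33, Psmb6 0.25, Psmc6 0.35, Psmd2 0.29, Psmd4 0.23, Psmd14 0.0848 and Psme4 0.12. With quantile normalization none was in DDC7. In BDL7 they were Psma2 0.0570, Psma3 0.0904, Psmd1 0.0700, Psmd11 0.0105 and Psme4 0.00235. In BDL28 they were Psma4 0.22 and Psmc1 0.19. In DDC28 it was Psmb1 0.19. The count of members called was 9 in BDL7 with quantile normalization (19 on the authors' scale), and with total-count scaling it was 12 in BDL28 (19), 5 in CsA7 (1), 21 in DDC7 (13) and 2 between CsA28 and CsA7 (0). Without the filter on low values 0 members were called in CsA7 and between DDC28 and DDC7, 2 in the day 7 difference of ligation and DDC (4), 5 in the day 28 difference (9) and 9 among the controls (18). With only the groups compared in the fit 0 were called in CsA7 and between DDC28 and DDC7, and edgeR called 0 between DDC28 and DDC7. In the 6 treatment comparisons edgeR on the recovered reads called 20 in BDL7, 22 in BDL28, 1 in CsA7, 0 in CsA28, 13 in DDC7 and 20 in DDC28. Leaving out each library gave 11 to 19 calls in BDL7, 17 to 23 in BDL28, 0 to 1 in CsA7, 0 in CsA28, 11 to 14 in DDC7, 17 to 20 in DDC28, 7 to 10 between BDL28 and BDL7, 0 to 1 between CsA28 and CsA7 (1 without CsA28 replicate 2 or CsA7 replicate 2), 0 to 1 between DDC28 and DDC7, 2 to 6 in the day 7 difference, 6 to 9 in the day 28 difference and 9 to 16 among the controls. Deviations of libraries with the same replicate number correlated above 0.1 in 0 of 4 pairs for each treatment comparison and in 2 of 4 between BDL28 and BDL7. Many sample titles carry another number than the replicate number, and pairing by the titles was not checked. With the replicate number as a block, 19 members were called in BDL7, 19 in BDL28, 1 in CsA7, 0 in CsA28, 15 in DDC7, 20 in DDC28, 9 between BDL28 and BDL7, 1 between CsA28 and CsA7 and 1 between DDC28 and DDC7. The causes of these shifts were not tested. Pseudocounts of 0.5 and 5 kept each count of calls within 1.5 times.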
